A study of Homo sapiens with 8 samples.

Results

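The HES and HEY genes and the Mastermind-like genes stand at the output end of the Notch pathway. The set described here held the repressors HES1, HES2, HES4, HES6, HEY1, HEY2 and HEYL and the coactivators MAML1, MAML2 and MAML3. Every probe set that the array's annotation assigned to a single one of these 10 genes was taken, which gave 20 of the 54613 probe sets tested. Affymetrix arrays measured RNA of MDA-MB-231, a line of human breast cancer cells of the basal-like subtype. In the siHMGA1 group (4 arrays) the cells had received an siRNA against HMGA1, a chromatin protein that binds the minor groove of AT-rich DNA, and in the siCTRL group (4 arrays) a control siRNA. Both siRNAs were given at 100 nM and RNA was taken 72 h later. The comparison asks which transcripts change when HMGA1 is silenced. The model is a single cell line, and the methods name 1 HMGA1 siRNA for the arrays. In RNA of whole cultures, fewer cells with a transcript and less of it per cell cannot be told apart.

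When a ligand on a neighbouring cell engages a Notch receptor, the receptor is cleaved and its intracellular domain enters the nucleus. There it joins the DNA-binding protein CSL (RBPJ) and a Mastermind-like protein, which recruits histone acetyltransferases and switches target genes on. HES1 and some other HES and HEY genes are the best known of these targets. They code for basic helix-loop-helix proteins that repress transcription through N boxes and E boxes, in part with Groucho/TLE corepressors, and they take part in the control of cell fate and of progenitor cells in the breast and elsewhere.

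Sequence upstream of the members is shown because CSL reads a known DNA motif and because HMGA1 binds AT-rich DNA. Windows of 9 of the 10 members were taken from the RefSeq promoter table (GRCh38.p14), and the window of HEY1 was not analysed here. In the 250 bases before each gene start, both strands were searched for the CSL motif GTGGGAA, the N box CACNAG and the E box CANNTG, and runs of at least 6 consecutive A or T bases were located. No matches overlapped each other in these windows. Other spellings of the CSL motif were not searched, so counts of CSL motifs are for this spelling only. HES1 and HES6 are the members with a lower signal after HMGA1 silencing, and their windows follow, with the CSL motif and the AT runs in capitals. The HES1 window is chr3:194135898-194136147 on the plus strand and the HES6 window chr2:238240039-238240288 on the minus strand.
HES1: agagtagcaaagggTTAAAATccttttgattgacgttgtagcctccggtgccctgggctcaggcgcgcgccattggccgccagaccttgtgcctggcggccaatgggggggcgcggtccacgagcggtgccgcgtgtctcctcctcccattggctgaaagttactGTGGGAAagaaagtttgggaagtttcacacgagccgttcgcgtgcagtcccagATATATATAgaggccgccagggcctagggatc
HES6: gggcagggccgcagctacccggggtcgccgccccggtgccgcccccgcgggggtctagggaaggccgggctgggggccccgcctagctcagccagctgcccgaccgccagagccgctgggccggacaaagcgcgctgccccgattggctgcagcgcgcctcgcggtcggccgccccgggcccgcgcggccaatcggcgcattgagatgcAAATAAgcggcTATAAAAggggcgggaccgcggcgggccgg

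The HES1 window held the CSL motif at -85 to -79 from the gene start, 3 N boxes, and AT runs at -236 to -230 and -32 to -24. The HES6 window held no CSL motif, 1 E box and AT runs at -41 to -36 and -30 to -24. CSL motifs were also present before HES4, HEY2 and HEYL, whose signals did not pass the test, and 40 bases around each are printed with the motif in capitals. The stretches are chr1:1000152-1000191 on the minus strand for HES4, chr6:125749402-125749441 on the plus strand for HEY2 and chr1:39639799-39639838 on the minus strand for HEYL. In HEY2 and HEYL the motif is read on the strand opposite to the gene, so that its reverse complement appears.
HES4: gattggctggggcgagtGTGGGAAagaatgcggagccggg
HEY2: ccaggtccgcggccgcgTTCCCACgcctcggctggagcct
HEYL: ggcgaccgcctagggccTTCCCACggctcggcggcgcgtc

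Thus 4 of the 9 windows held GTGGGAA, against 5.43% of all 35116 RefSeq windows of the same length. The HES1 and HES4 stretches share the letters around the motif, with an attggctg before it and an agaa directly after it. AT runs were found in 4 of the 9 windows (HES1, HES4, HES6 and MAML1), against 58.7% of all windows. The share of A and T was 40.8% before HES1, 22.8% before HES6 and 27.6% before MAML3, against a median of 42.0% over all windows. An N box was present in 32.0% and an E box in 61.8% of all windows. These matches are letters in a window and no binding was measured. The map of motif matches shows them by distance from the gene start.

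**Figure D1:**
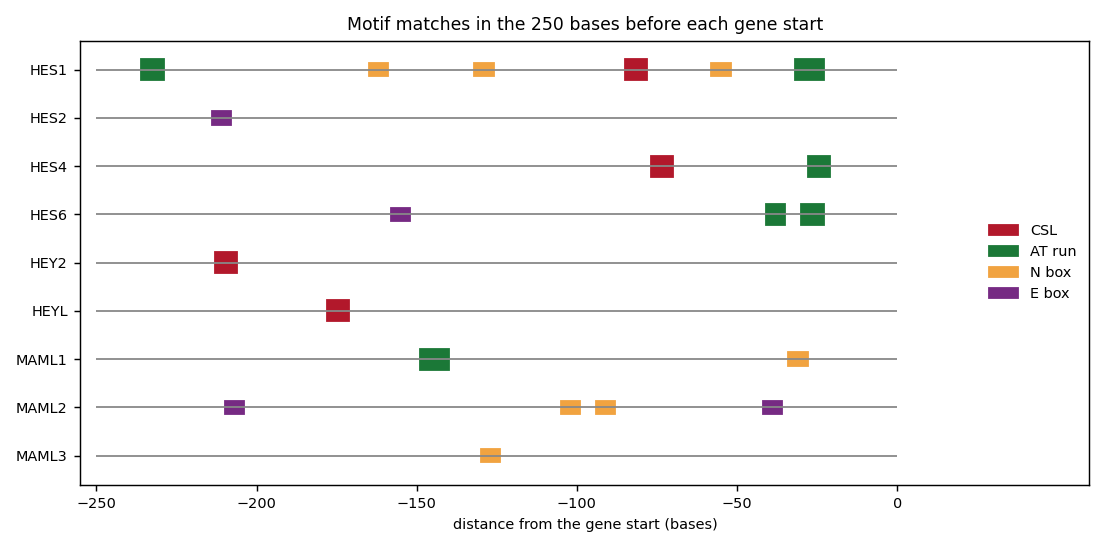
Matches to the CSL motif, AT runs, N boxes and E boxes in the 250 bases before the gene start of 9 members (x axis, distance from the start in bases; 1 line per gene). CSL matches lie before HES1, HES4, HEY2 and HEYL, and the window of MAML3 held 1 N box and no CSL match.

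Before the members, the arrays were checked. HMGA1 was lower in all 4 siHMGA1 arrays than in any siCTRL array on both of its probe sets, with a log2 fold change of -2.42 (SE 0.0981, limma adjusted p = 5.2e-08) on 206074_s_at and of -0.90 (SE 0.154, limma adjusted p = 0.00107) on 210457_x_at. The first left 18.7% and the second 53.5% of the siCTRL signal. Arrays correlated at 0.995 to 0.998 within groups and at 0.989 to 0.992 between groups. Of 6 mesenchymal and basal B markers, 5 (VIM, CD44, CAV1, AXL and MSN) were above the dim level defined next and SPARC was not. Of these, AXL was higher and MSN lower in siHMGA1 arrays, with log2 fold changes of 0.19 and -0.34. Of 7 luminal markers, PGR and FOXA1 were dim and the others were not. Means were 13.72 for KRT18, 10.33 for TFF1, 9.79 for GATA3 and 8.06 for ERBB3. In siHMGA1 arrays ERBB3 was higher and TFF1 lower, with log2 fold changes of 1.31 and -0.33. Of 4 leukocyte markers measured, PTPRC and CD3E were dim, while CD14 and ITGAM, with means of 6.83 and 6.41, were not. The luminal marker ESR1 was not dim either, at 6.47. A probe set is called dim here where its mean over the 8 arrays lay under a log2 signal of 6.11. This level is the 95th percentile of 107 olfactory receptor probe sets, which serve as genes that a breast cell line is not known to express. A signal above it thus does not by itself show that a gene is expressed. The probe sets of HES4 (mean 6.49) and HEY1 (6.69 and 6.43) lay between the means of ITGAM and CD14.

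RNA ends differed between the arrays. The control probe sets for GAPDH gave a log2 difference between the 3′ and the 5′ end of 0.63 to 0.70 in siHMGA1 arrays, against 1.34, 0.70, 1.21 and 0.74 in siCTRL arrays 1 to 4. For ACTB the difference was 3.04 to 3.22 in siHMGA1 arrays and 4.11, 3.34, 3.96 and 3.38 in siCTRL arrays 1 to 4, and the groups did not overlap. Arrays 1 and 3 of siCTRL thus stood apart from the other 6 arrays, so each called member is also given against siCTRL 2 and 4 only, an alternative chosen after seeing the data. The part of RNA ends in the results was not tested beyond this.

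Signals are log2 values, so a difference of 1 is a doubling, and a probe set was called where limma's adjusted p, over all probe sets, was under 0.05. By this rule 3 of the 20 member probe sets were lower in siHMGA1 arrays (the HES1 probe sets that were not dim and HES6) and 1 was higher (a MAML3 probe set), and 16 did not pass. Without siHMGA1 array 2, 1 probe set was lower (HES1 203395_s_at). Over all probe sets, 22.1% were called, 10.4% lower and 11.7% higher. Lower ones were 47.1% of these calls, and 29.4% when arrays were centred on housekeeping genes. The members' 4 of 20 is close to this background. The same 4 probe sets were those whose groups did not overlap, against 25.5% of all probe sets. Of the members, 9 probe sets were dim and 0 of these were called, and of the 11 that were not dim 4 were called, or 36.4%, against 37.9% of all probe sets that were not dim. None of the members passed the strict thresholds of the methods, an adjusted p below 1e-04 with a log2 fold change beyond 1.4, which 0.396% of all probe sets did. An unadjusted limma p under 0.05 was reached by the same number of member probe sets, 4, and the methods' t-test placed 0 of them past the strict thresholds. The median log2 fold change was -0.03 over the 20 member probe sets and 0.01 over all probe sets, and the median size of the change was 0.102 and 0.111.

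**Figure D2:**
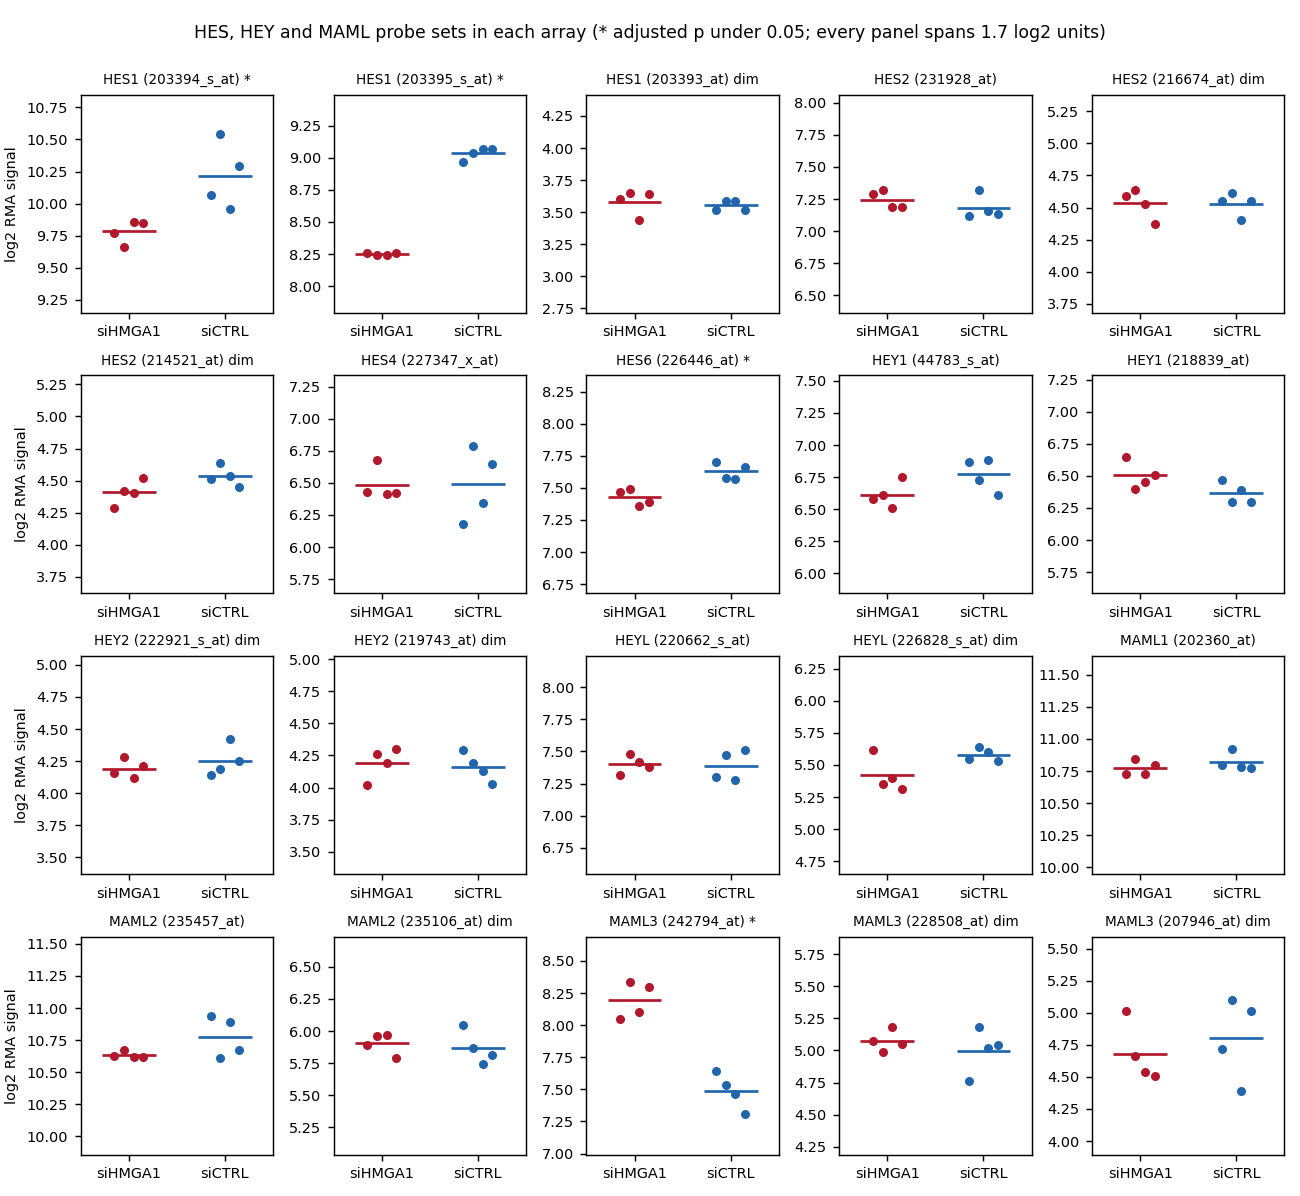
Log2 RMA signal (y axis) of the 20 member probe sets in each of 4 siHMGA1 and 4 siCTRL arrays, 1 panel per probe set. Points are arrays in the order 1 to 4, lines are group means, a star marks an adjusted p under 0.05 and all panels span the same range of 1.7 log2 units. On HES1 203395_s_at the siHMGA1 arrays lie at 8.24 to 8.26, all under the siCTRL arrays at 8.97 to 9.07, and on MAML3 242794_at the siHMGA1 arrays lie above.

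HES1, the HES protein most widely used as a readout of Notch activity, fell on both of its probe sets that were not dim. Probe set 203395_s_at had log2 signals of 8.26, 8.24, 8.24 and 8.26 in siHMGA1 arrays 1 to 4, against 8.97, 9.04, 9.07 and 9.07 in siCTRL arrays 1 to 4. Within each group the arrays lay almost on top of each other, and the groups were far apart by comparison. The means were 8.25 ± 0.0149 for siHMGA1 and 9.04 ± 0.0485 for siCTRL (SD, n = 4 each). The log2 fold change was -0.79 (SE 0.0596, limma adjusted p = 2.44e-06), and 58.0% of the siCTRL signal was left. Against siCTRL 2 and 4 only, the log2 fold change was -0.80 (adjusted p = 6.3e-05).

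Probe set 203394_s_at of HES1 gave 9.77, 9.66, 9.86 and 9.85 in siHMGA1 arrays, against 10.07, 10.54, 9.96 and 10.29 in siCTRL arrays. The groups did not overlap, but the gap between the highest siHMGA1 array and siCTRL array 3 was small, and siCTRL 1 and 3, the arrays with the larger RNA end differences, were the lower ones of their group. The log2 fold change was -0.43 (SE 0.112, limma adjusted p = 0.0151), with 74.1% of the signal left. Without siHMGA1 array 2 the adjusted p was 0.0501, and against siCTRL 2 and 4 only the log2 fold change was -0.63 (adjusted p = 0.00147). In 5 of the 20 member probe sets both siCTRL 2 and 4 lay above both siCTRL 1 and 3, the same share as among all probe sets (25.0%).

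The remaining HES1 probe set, 203393_at, was dim and gave 3.60, 3.65, 3.44 and 3.64 in siHMGA1 arrays and 3.52, 3.59, 3.59 and 3.52 in siCTRL arrays. Its log2 fold change was 0.03 (adjusted p = 0.851). The difference in log2 fold change between 203394_s_at and 203395_s_at was 0.35, and between 203394_s_at and 203393_at it was -0.46, each at p = 0.0571 in the exact two-sided permutation test. The mean of the 3 HES1 probe sets gave a log2 fold change of -0.40 (limma adjusted p over genes = 2.61e-04).

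HES6, a HES protein known to oppose the action of HES1, was lower by a small margin. Its probe set 226446_at had 7.47, 7.49, 7.36 and 7.39 in siHMGA1 arrays, against 7.70, 7.58, 7.57 and 7.66 in siCTRL arrays. The groups did not overlap, and the highest siHMGA1 array lay just under the lowest siCTRL array. The log2 fold change was -0.20 (SE 0.0649, limma adjusted p = 0.0427), or 86.9% of the siCTRL signal. This call did not hold without any 1 of the 8 arrays: the adjusted p was then 0.0519 to 0.126, with log2 fold changes of -0.22 to -0.18. It was 0.0949 against siCTRL 2 and 4 only, and 0.186 at a log2 fold change of -0.12 when arrays were centred on housekeeping genes.

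HES2 and HES4, repressors of the same family, did not pass on any probe set. HES2 had 7.29, 7.32, 7.19 and 7.19 in siHMGA1 arrays and 7.12, 7.32, 7.16 and 7.13 in siCTRL arrays on 231928_at, a log2 fold change of 0.06 with a 95% interval of -0.09 to 0.22. Its other probe sets, 216674_at and 214521_at, were dim, with log2 fold changes of 0.00 and -0.13 and adjusted p-values of 0.983 and 0.269.

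HES4 had 6.43, 6.68, 6.41 and 6.42 in siHMGA1 arrays and 6.18, 6.79, 6.34 and 6.65 in siCTRL arrays on 227347_x_at. Its siCTRL arrays were spread far more widely than the difference between the groups, with siCTRL 1 and 3 again low, and the siHMGA1 arrays lay inside their range. The log2 fold change was -0.01 with a 95% interval of -0.28 to 0.26, and against siCTRL 2 and 4 only it was -0.24 (adjusted p = 0.126).

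The HEY genes, known for their role in heart and vessel development, gave no call. The probe sets of HEY1 leaned in opposite directions. On 44783_s_at HEY1 had 6.58, 6.61, 6.51 and 6.75 in siHMGA1 arrays and 6.87, 6.73, 6.88 and 6.61 in siCTRL arrays, a log2 fold change of -0.16 (95% interval -0.34 to 0.02, adjusted p = 0.202). On 218839_at it had 6.65, 6.40, 6.45 and 6.51 in siHMGA1 arrays and 6.47, 6.30, 6.39 and 6.30 in siCTRL arrays, a log2 fold change of 0.14 (95% interval -0.03 to 0.30, adjusted p = 0.242). The groups overlapped on both. The difference between the 2 log2 fold changes was -0.30 (exact two-sided permutation p = 0.0286, the smallest that 4 against 4 arrays allow), and 0.114 after adjustment over the 10 pairs of probe sets compared.

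HEY2 was the only member with every probe set dim. Its siHMGA1 arrays lay at 4.12 to 4.28 and its siCTRL arrays at 4.14 to 4.42 on 222921_s_at, and at 4.02 to 4.30 against 4.03 to 4.29 on 219743_at, with log2 fold changes of -0.05 and 0.03. Low signals are compressed by background, which can hide a change.

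HEYL had 7.32, 7.48, 7.42 and 7.38 in siHMGA1 arrays and 7.30, 7.47, 7.28 and 7.51 in siCTRL arrays on 220662_s_at, a log2 fold change of 0.01 with a 95% interval of -0.15 to 0.18. Its dim probe set 226828_s_at had 5.62, 5.35, 5.40 and 5.31 in siHMGA1 arrays and 5.55, 5.64, 5.60 and 5.53 in siCTRL arrays. Here 3 of the siHMGA1 arrays lay under every siCTRL array and array 1 did not. Its log2 fold change was -0.16 (adjusted p = 0.185), and -0.23 without siHMGA1 array 1 (limma adjusted p = 0.0419).

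Among the repressors as a group, 3 of 14 probe sets were lower and 0 were higher, with a median log2 fold change of -0.03. Over all probe sets, 10.4% were lower and 11.7% higher. Of the 8 repressor probe sets that were not dim, 37.5% were called, close to the 37.9% of all probe sets that were not dim. The calls came from 2 of the 7 genes, HES1 and HES6.

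**Figure D3:**
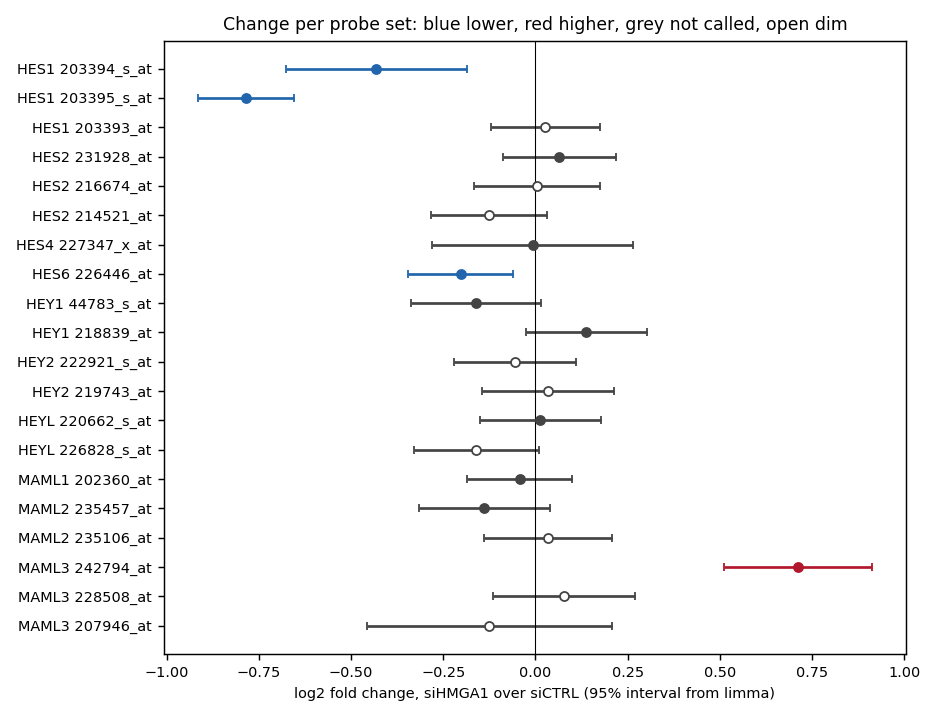
Log2 fold change of siHMGA1 over siCTRL (x axis) for each member probe set, with the 95% interval from limma. Blue points were lower and red ones higher at an adjusted p under 0.05, grey ones were not called, and open points are dim. HES1 203395_s_at at -0.79 and MAML3 242794_at at 0.71 lie farthest from 0, and the other intervals except those of HES1 203394_s_at and HES6 include 0.

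MAML3, a Mastermind-like coactivator of the Notch complex, rose on 1 of its 3 probe sets. On 242794_at it had 8.05, 8.34, 8.10 and 8.30 in siHMGA1 arrays, against 7.64, 7.53, 7.46 and 7.31 in siCTRL arrays. Every siHMGA1 array was above every siCTRL array. The means were 8.20 ± 0.145 for siHMGA1 and 7.48 ± 0.138 for siCTRL (SD, n = 4 each). The log2 fold change was 0.71 (SE 0.0915, limma adjusted p = 1.33e-04), or a 1.64-fold higher signal. Against siCTRL 2 and 4 only it was 0.77 (adjusted p = 0.00107).

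The other MAML3 probe sets were dim and did not show this. Probe set 228508_at had 5.07, 4.99, 5.18 and 5.05 in siHMGA1 arrays and 4.76, 5.18, 5.02 and 5.04 in siCTRL arrays, a log2 fold change of 0.08 (adjusted p = 0.628). Probe set 207946_at had 5.01, 4.66, 4.54 and 4.51 in siHMGA1 arrays and 4.72, 5.10, 4.39 and 5.01 in siCTRL arrays, a log2 fold change of -0.13 (adjusted p = 0.653). The fold change of 242794_at exceeded theirs by 0.63 (exact two-sided permutation p = 0.0286) and 0.84 (exact p = 0.0571), both 0.114 after adjustment over the 10 pairs. In the mean of the 3 probe sets the log2 fold change was 0.22 (limma adjusted p over genes = 0.0303). Of the 10 pairs of probe sets, 2 had an exact p under 0.05 and 0 passed after adjustment.

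MAML1, the founding member of the coactivator family, had 10.73, 10.84, 10.73 and 10.80 in siHMGA1 arrays and 10.80, 10.92, 10.78 and 10.77 in siCTRL arrays on its only probe set, 202360_at. The groups overlapped, and the 95% interval of the log2 fold change, -0.18 to 0.10, is among the narrower ones here. MAML2, known as the partner in a gene fusion of salivary gland carcinoma, had 10.63, 10.67, 10.62 and 10.62 in siHMGA1 arrays and 10.94, 10.61, 10.89 and 10.67 in siCTRL arrays on 235457_at. Its higher siCTRL arrays were again 1 and 3. This probe set differed by -0.14 on the log2 scale (adjusted p = 0.290), and the dim probe set 235106_at by 0.03 (adjusted p = 0.831). Thus the 6 Mastermind-like probe sets held 1 higher and 0 lower, against 11.7% higher and 10.4% lower over all probe sets. Their median log2 fold change was 0.00.

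For the whole pathway, 58 of 63 other Notch genes were measured, each on the probe set with the highest mean, which was dim for 7 of them. Of the 58 genes 10 were lower and 12 higher in siHMGA1 arrays, against 13.3% lower and 13.9% higher among all 19775 genes. Their median log2 fold change was -0.02. All genes are not a like background, since 7377 of the 19775 were dim, a larger share than in the list. Of all probe sets that were not dim 37.9% were called, against 22.1% of all probe sets. Without siHMGA1 array 1 the number of the 58 genes lower was 6, and without siHMGA1 array 3 the number higher was 6. Against siCTRL 2 and 4 only, 6 of the 58 were lower and 11 higher. Of the 21 genes named next, 12 kept their call without any 1 of the 8 arrays, 15 against siCTRL 2 and 4 only and 16 with housekeeping centring. For the other 9, the arrays whose removal ended the call are given.

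Of the 5 ligands, JAG1 fell and the other 4 did not pass. It had 12.26, 12.20, 12.21 and 12.33 in siHMGA1 arrays, against 13.13, 12.81, 13.00 and 12.94 in siCTRL arrays, a log2 fold change of -0.72 (SE 0.0775, limma adjusted p = 3.53e-05), and 3 of its 5 other probe sets were lower too. None of the 4 Notch receptors was called at an adjusted p under 0.05 from limma.

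Of 13 genes that process or glycosylate the receptor, 4 were higher and 1 lower. ADAM17, a protease that can release the receptor's outer part, rose by 0.58 on the log2 scale (10.87 to 10.92 in siHMGA1 arrays, 10.25 to 10.48 in siCTRL arrays), and both of its other probe sets rose as well. POGLUT1, which adds glucose to the receptor, was higher by 0.29, and its other probe set, at 0.21, was not called. RFNG, a fringe glycosyltransferase, was higher by 0.27 with overlapping groups, and lost its call without siCTRL 1 or 3 or siHMGA1 2, 3 or 4 (adjusted p up to 0.135). APH1A, a subunit of gamma-secretase, was lower by 0.22 on the log2 scale (log2 fold change -0.22), and lost its call without siCTRL 2 or 4 or siHMGA1 1 or 3 (adjusted p up to 0.0672), while its 2 other probe sets were not called.

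Of 10 genes for CSL and its nuclear partners, 3 were lower and 3 higher. KAT2B, a histone acetyltransferase that joins the activating complex, showed the largest change of the 58 genes: it had 9.77, 9.94, 10.04 and 9.93 in siHMGA1 arrays, against 11.11, 11.13, 11.19 and 10.93 in siCTRL arrays, a log2 fold change of -1.17 (SE 0.0801, limma adjusted p = 1.17e-06), or 44.4% of the signal. CCNC, the cyclin that pairs with CDK8, had a log2 fold change of -0.40, while its other probe set, at 0.05, was not called and the mean of both gave -0.17 (adjusted p = 0.0771). The log2 fold change of SNW1, a CSL-binding coregulator, was -0.26, and its other probe set, at -0.09, was not called. The SNW1 call was lost against siCTRL 2 and 4 only (adjusted p = 0.0803) and with housekeeping centring (log2 fold change -0.18, adjusted p = 0.0728). L3MBTL3, a corepressor that binds CSL, was higher by 0.59. CDK8, the kinase that marks the intracellular domain for destruction, and FBXW7, the ubiquitin ligase subunit that then takes it up, were higher by 0.25 and 0.26. CDK8 lost its call without siCTRL 2 or 4 or siHMGA1 1, 3 or 4 (adjusted p up to 0.0887). FBXW7 lost its call without siCTRL 2 or 4 or siHMGA1 3 or 4 (adjusted p up to 0.0923). Of the 2 other CDK8 probe sets, at 0.13 to 0.40, 1 was called higher and 1 was not called. Of the 3 other FBXW7 probe sets, at 0.18 to 0.45, 2 were called higher and 1 was not called.

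Of the 5 Groucho/TLE corepressors that HES proteins recruit, TLE3 fell. It had 8.93, 8.78, 8.64 and 8.75 in siHMGA1 arrays, against 9.37, 9.22, 9.18 and 9.24 in siCTRL arrays, a log2 fold change of -0.48 (SE 0.0773, limma adjusted p = 7.30e-04), and all 3 of its other probe sets were lower. Of 10 genes of Notch trafficking and ubiquitination, MIB2, a ubiquitin ligase for ligands, was higher by 0.44 on 1 of its 5 probe sets, and the mean of the 5 gave 0.12 (adjusted p = 0.119). NUMB, which inhibits Notch, was higher by 0.35. Its relative NUMBL had a log2 fold change of -0.26, while the other NUMBL probe set, at -0.13, was not called. DTX3, of the Deltex family, had a log2 fold change of -0.31 on 1 of its 5 probe sets. These 3 calls were lost without siCTRL 3 or 4 or siHMGA1 1 or 3 for NUMB (adjusted p up to 0.0821), without siCTRL 1 or 3 or siHMGA1 1, 2 or 4 for NUMBL (up to 0.0882), and without siCTRL 2, 3 or 4 or siHMGA1 1, 3 or 4 for DTX3 (up to 0.104).

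Among 4 other repressors related to HES and HEY, the paralogues BHLHE40 and BHLHE41, which also act in the circadian clock, moved in opposite directions. BHLHE40 had 10.18, 10.28, 10.20 and 10.35 in siHMGA1 arrays, against 10.62, 10.80, 10.62 and 10.69 in siCTRL arrays, a log2 fold change of -0.43 (SE 0.0704, limma adjusted p = 7.64e-04). BHLHE41 had 8.06, 8.10, 8.13 and 8.11 in siHMGA1 arrays, against 7.45, 7.32, 7.37 and 7.03 in siCTRL arrays, a log2 fold change of 0.81 (SE 0.0874, limma adjusted p = 3.67e-05), with 1 of its 3 other probe sets higher and 2 not called. Without _s_at and _x_at probe sets, which can read related transcripts, another probe set stood for BHLHE41, at 0.08 (adjusted p = 0.565), and the call was lost. HES7, part of the segmentation clock, was higher by 0.30 (6.25 to 6.43 in siHMGA1 arrays, 5.86 to 6.16 in siCTRL arrays). Its mean of 6.19 lay just above the dim level of 6.11, and its siCTRL mean of 6.04 lay under it. The limma adjusted p of HES7 was 0.0563 without siHMGA1 array 3. Against siCTRL 2 and 4 only it was 0.0844, at a log2 fold change of 0.21.

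Of 7 other genes reported as Notch targets, MYC, a growth-promoting transcription factor, was higher by 0.54 on its only probe set, with 11.82, 11.85, 11.73 and 11.79 in siHMGA1 arrays against 11.26, 11.26, 11.23 and 11.29 in siCTRL arrays (adjusted p = 4.78e-05). SOX9, a transcription factor of progenitor cells, had a log2 fold change of -0.25. It lost its call without siCTRL 1 or 4 or siHMGA1 1 or 3 (adjusted p up to 0.0896). The other SOX9 probe set was also called lower, at -0.41. The plot of pathway genes by list sets these side by side.

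**Figure D4:**
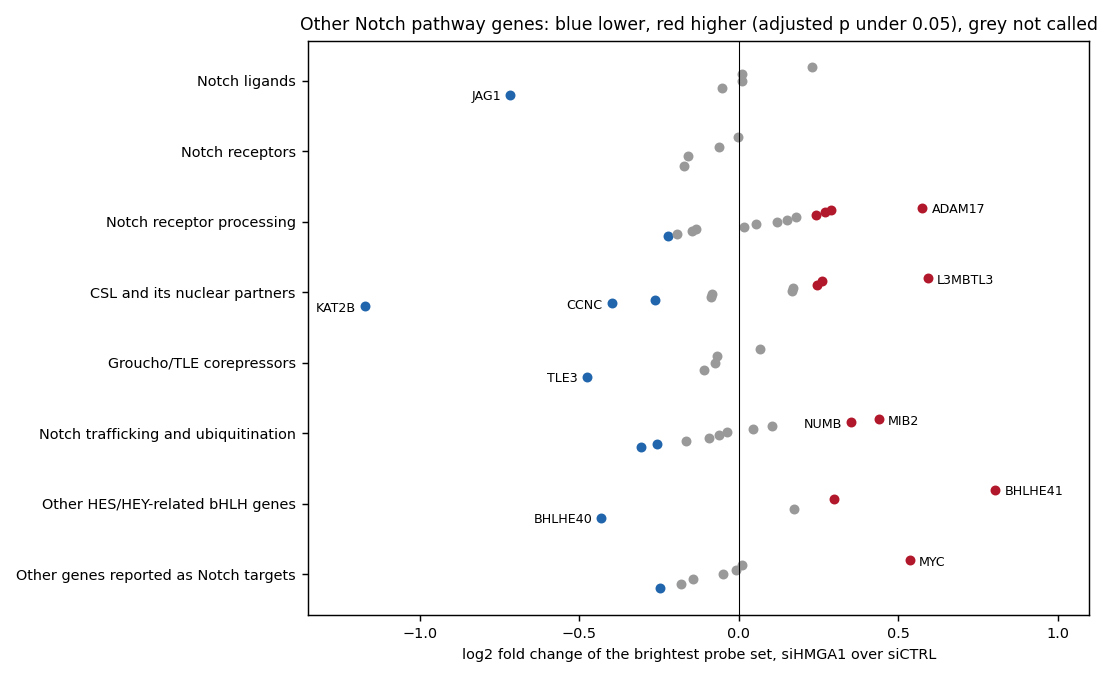
Log2 fold change of siHMGA1 over siCTRL (x axis) of the 58 other Notch pathway genes, each on its probe set with the highest mean, by list. Blue points were lower and red ones higher at an adjusted p under 0.05 and grey ones were not called, with names given for called genes beyond 0.35. KAT2B at -1.17 and JAG1 at -0.72 lie at the low end and BHLHE41 at 0.81 at the high end.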

How the data were processed

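The authors deposited 1 log2 signal per probe set and array, made with RMA and the Affymetrix Expression Console. RMA corrects background, normalizes between arrays and summarises the probes of a set. RMA and affy are the tools in the submitters' processing notes. The methods give 4 replicates and one array design in one section, and 3 replicates and another design in another. The file holds hgu133plus2 probe sets of 4 siHMGA1 and 4 siCTRL arrays, all used. Replicates are called biological, with no account of separate cultures, so a p-value reflects only how these arrays vary, and their number limits the precision.

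Of 54675 probe sets, 62 controls were left out of the fit. The annotation gave 1 gene to 41091 probe sets, several to 1801 and none to 11721. Its symbols all matched current RefSeq symbols where an identifier was found. Probe sets ending in _s_at or _x_at can read related transcripts. The 20 member probe sets were tested with limma 3.58.1 (R 4.3.3) on all probe sets, with Benjamini-Hochberg adjustment over all 54613. The limma step was tested on simulated data.

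All members were named, with HMGA1 and, per list of other Notch genes, up to 3 genes lower and 3 higher with the largest change. The members, the lists and the tests were chosen with earlier results of these data known. Some genes of the lists were not analysed here. Alternatives were a replicate block, cyclic loess, housekeeping centring, a minimum mean of 6, a robust fit with a variance trend, weighted arrays, removal of single arrays, a fold threshold, the methods' two-tailed test, 1 or the mean probe set per gene, and leaving out _s_at and _x_at probe sets. Leaving out siCTRL 1 and 3 together was added after seeing the data.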

Additional observations from a re-analysis of the deposited data

Results flagged for a closer look

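HES4, a HES repressor, had 1 siHMGA1 array far from the other 3 on 227347_x_at. The log2 signal was 6.68 in siHMGA1 array 2, against 6.43, 6.41 and 6.42 in arrays 1, 3 and 4. The gap to the nearest array took up 0.936 of the group's range, above Dixon's 95% critical value for 4 arrays. Among the 44 groups of 4 arrays tested this way it was the only one past that value, and chance would pass about 1 in 20. Without siHMGA1 array 2 the HES4 probe set was still not called.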

How the results depend on the processing

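The call of HES1 203395_s_at and that of MAML3 242794_at held under every alternative that kept the probe set, with log2 fold changes of -0.81 to -0.70 and 0.65 to 0.79. HES1 203394_s_at lost its call without siHMGA1 array 2 and under the methods' t-test (adjusted p = 0.0823), with the same direction throughout. That test placed 3 member probe sets lower and 1 higher at an unadjusted p under 0.05, and 2 lower after adjustment. The number of member probe sets called lower was 1 to 3 over the 8 single-array removals (1 without siHMGA1 array 2). It was 0 without _s_at and _x_at probe sets, which removes both called HES1 probe sets and leaves HES6 at an adjusted p of 0.0564. Where a log2 fold change beyond 0.5 was also asked, it was 1. The number called higher was 1 throughout. Other Notch genes called lower numbered 6 to 9 over these removals, 5 with housekeeping centring, 6 against siCTRL 2 and 4 only and 6 without _s_at and _x_at probe sets. Those called higher numbered 6 to 11 over these removals, 16 with housekeeping centring, 11 against siCTRL 2 and 4 only and 8 without _s_at and _x_at probe sets. APH1A turned to 0.0052 (adjusted p = 0.984) without _s_at and _x_at probe sets, where another probe set stood for the gene. Housekeeping centring moved the median log2 fold change of all probe sets to 0.09, and 29.4% of its calls were lower, against 47.1% of the calls otherwise. This centring moves every log2 fold change by the same amount. Of the 10 housekeeping genes measured, 2 were themselves called lower and 1 higher in siHMGA1 arrays. Why the housekeeping genes differed was not tested. The sample titles number the arrays of each group as experiments, and whether same-numbered arrays were paired is not stated. Deviations of same-numbered arrays correlated at 0.05, 0.22, 0.07 and -0.14, and such weak correlations do not settle it. With the replicate number as a block, 2 member probe sets were called lower and 1 higher, since HES6 had an adjusted p of 0.0700, and 10 and 12 other Notch genes were called. Of the 20 member probe sets, 9 were dim, where background compresses a change.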

Other observations

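Core genes of the pathway that the report does not name were looked at after their values were seen. RBPJ, which codes for CSL itself, had a difference of -0.09 on the log2 scale (limma adjusted p = 0.524), and NRARP, a direct Notch target that damps the pathway, had -0.05 (adjusted p = 0.675). EP300, the acetyltransferase that Mastermind-like proteins recruit, had -0.08 (adjusted p = 0.564), and its relative CREBBP 0.17 (adjusted p = 0.165). Of the other targets, CCND1, a G1 cyclin, had -0.01 (adjusted p = 0.949). PTPRC, a leukocyte marker that was dim, was called higher by 0.50 on the log2 scale. It had 5.11 to 5.30 in siHMGA1 arrays and 4.54 to 4.77 in siCTRL arrays, so a dim mean does not bar a call.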
